A study of Rattus norvegicus with 6 samples.

Results

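The distal part of rat chromosome 1 was examined for contacts with a gene promoter on chromosome 13 that had served as the viewpoint of a 4C-seq experiment in cardiac endothelial cells. The part was taken as all EcoRI fragments of chromosome 1 whose tabulated start lies at 160 Mb or beyond (genome build rn5). It holds 37712 of the 759990 fragments outside chromosome 13, from base 160004885 to the chromosome's last base at 290094217. The bound was chosen from the captured levels of these same libraries, so the level of the part is described here and not tested. All coordinates are on chromosome 1 of rn5 and counted from 1, and the genome and gene annotation of that build were not used here, so regions are named by position alone.

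There were 6 libraries, 3 from SS rats (SS/JrHsdMcwi, the Dahl salt-sensitive strain) and 3 from SS13BN rats (SS-13BN/Mcwi, a consomic strain with chromosome 13 of the Brown Norway rat on the SS background). Cells of males and females were pooled in both groups, all cells were at passage 2, and all were fixed with 2% formaldehyde for 10 min. Chromosome 1 is of SS origin in both strains, and only the chromosome that carries the viewpoint differs. Nothing in the labels ties the 3 libraries of a strain to different animals or different cultures. The p-values below therefore rest on library-to-library spread that may be no more than technical.

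In 4C-seq, fixed chromatin is cut and re-ligated, and the pieces joined to 1 chosen fragment are amplified and sequenced. Contacts between different chromosomes are rare and are spread thinly, so they are read as the density of captured fragments over long stretches. Chromosomes occupy territories in the nucleus, and as a rule active, gene-rich chromatin of different chromosomes meets more often than inactive chromatin does. A captured fragment is a fragment seen at least once in a library, however many reads it had. The deposited score of a fragment states how far the captured number in a running window of neighbouring fragments lies from the number that the captured share of the whole chromosome gives, in units of its binomial SD.

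The libraries differed in depth, and those numbered 3 stood apart. Each captured between 8.76% and 17.4% of the fragments outside chromosome 13, and SS13BN 2 captured the most. In SS 3 and SS13BN 3 every score of chromosome 13 was 0. In these libraries, fragments of 400 to 1000 bp were captured at 0.575 and 0.592 times the library's level, against 0.712 to 0.756 times in the other 4. Levels are therefore given as relative capture, the captured share of a region divided by the library's share over all chromosomes but 13. Intervals cover counting error only.

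The distal part was captured above the level of every library. SS 1 captured 5516 of its 37712 fragments, or 14.6% (95% Wilson interval 14.3% to 15.0%). SS 2 captured 11.8% (11.5% to 12.2%) and SS 3 captured 14.4% (14.1% to 14.8%). SS13BN 1 captured 11.7% (11.3% to 12.0%), SS13BN 2 captured 20.7% (20.3% to 21.1%) and SS13BN 3 captured 10.5% (10.2% to 10.8%). These shares ran in the order of library depth, and relative to it the 6 lay close together. Relative capture was 1.18, 1.18 and 1.21 in SS 1 to 3 and 1.17, 1.19 and 1.19 in SS13BN 1 to 3, with a mean of 1.19 ± 0.0135 (SD, n = 6). The rest of chromosome 1, with 45929 fragments, stood at 0.866 ± 0.0148 (SD, n = 6). Without the libraries numbered 3 the mean of the distal part was 1.18.

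The bound at 160 Mb does not mark a step. The 500 kb window just inside it, from 160000001 to 160500000, had a relative capture of 1.15 ± 0.198 (SD, n = 6), and the next inside stood at 0.770 ± 0.245. The window just outside, from 159500001 to 160000000, stood at 0.921 ± 0.133. High capture began farther in, as the plot along the part shows.

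**Figure D1:**
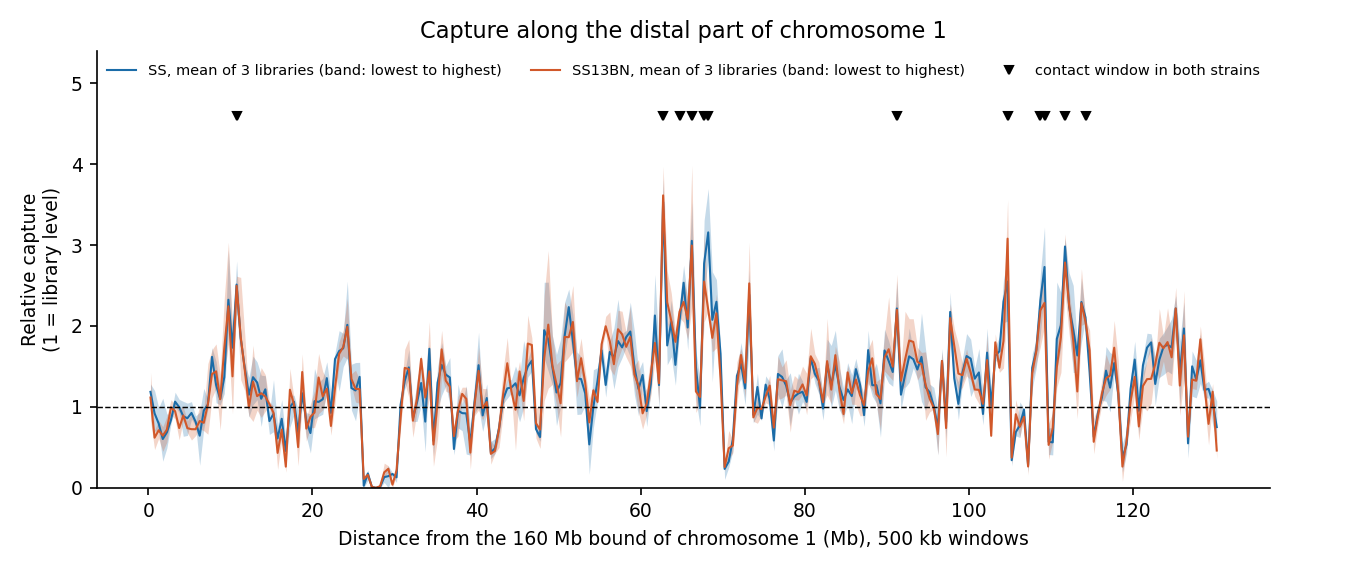
Relative capture of 500 kb windows (vertical axis, 1 is the library's level outside chromosome 13) against distance from the 160 Mb bound in Mb; lines are means of 3 libraries per strain, bands run from the lowest to the highest library, and triangles mark contact windows of both strains. The highest window, at 3.57, lies a little over 60 Mb from the bound, and a floor of very low capture begins 26 Mb from it and ends just past 30 Mb.

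Within the part, 10 Mb blocks ranged from the most captured of the genome to nearly the least. The block from 220 to 230 Mb stood at 1.98, 2.11 and 1.77 in SS 1 to 3 and at 1.90, 1.79 and 1.87 in SS13BN 1 to 3. Of 277 blocks with at least 500 fragments outside chromosome 13, it ranked 1 in SS 1, SS 2, SS 3 and SS13BN 3 and 2 in SS13BN 1 and SS13BN 2, and it kept these ranks when captures were divided by those expected from fragment length. Its mean was 1.91 ± 0.129 (SD, n = 6), or 1.77 ± 0.129 with that division. The block from 180 to 190 Mb ranked between 273 and 276 in the 6 libraries, with a mean of 0.502 ± 0.0276 (SD, n = 6). With the division by length it stood at 0.643 ± 0.0212 and ranked between 258 and 267.

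The other blocks lay between these. The block from 210 to 220 Mb stood at 1.53 ± 0.0709 (SD, n = 6), next to the highest block. From 240 Mb to the chromosome's end, the 5 full blocks stood at 1.31 ± 0.0564, 1.45 ± 0.0832, 1.33 ± 0.0726, 1.39 ± 0.0375 and 1.44 ± 0.0809 in order. Ordered by mean, each of these 5 differs from the next by less than the larger of the SDs. The blocks at 160, 170, 190 and 200 Mb were near the library's level, at 0.995 ± 0.0475, 1.07 ± 0.0518, 1.05 ± 0.0631 and 1.13 ± 0.0988. The block at 230 Mb, beside the highest, was also near it at 1.08 ± 0.0346. Of 13 full blocks, 10 were above 1 in all 6 libraries. The last 28 fragments, beyond 290 Mb, stood at 0.606 ± 0.252.

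**Figure D2:**
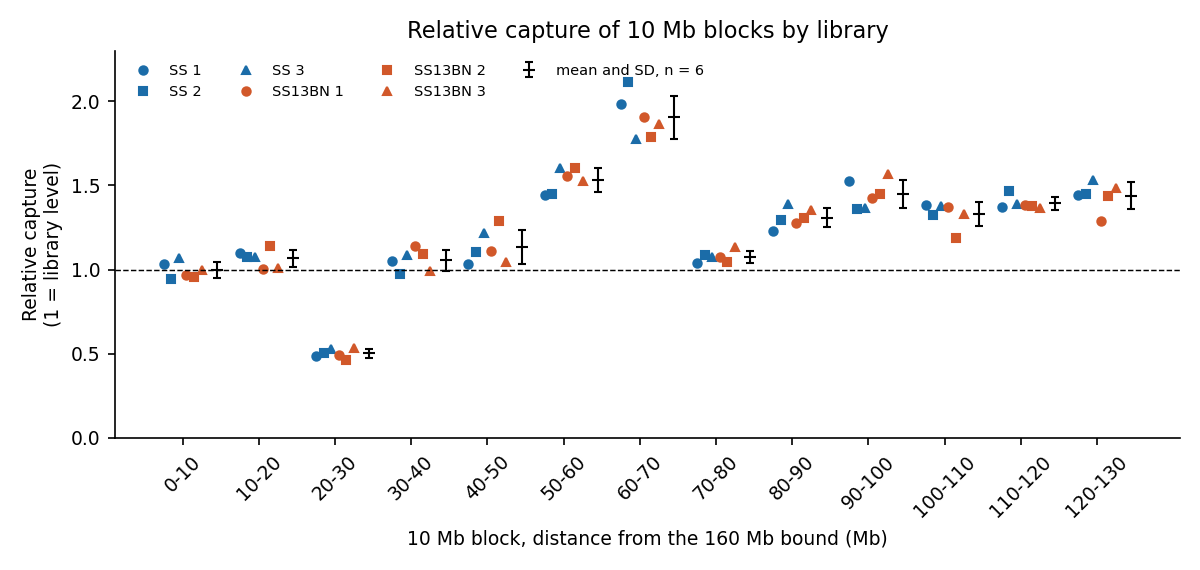
Relative capture (vertical axis, 1 is the library's level) of the 13 full blocks of 10 Mb, by distance from the 160 Mb bound in Mb; each point is 1 library and the black bar gives mean and SD of 6. All 6 libraries have their highest value in the block 60 to 70 Mb from the bound and their lowest in that 20 to 30 Mb from it. That lowest block holds the region from 187 to 188.5 Mb, where almost no fragment was captured.

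In the deposited scores the high and low regions were visible as long stretches. The median score over the part ran from 1.27 in SS 2 to 2.46 in SS13BN 2, and between 66.3% and 72.5% of its fragments scored above 0. The score window spanned a median of 1.78 Mb here, so scores of neighbours overlap and the bounds of stretches are soft. Fragments that scored 3 or more in all 6 libraries made up 18.1% of the part, where they made up 3.89% of all fragments outside chromosome 13 and 0 of the 45929 in the rest of chromosome 1. Each score is set against its own chromosome's captured share, so a high share in one part of a chromosome goes with a low share in the other. In the distal part, 12 unbroken stretches of at least 100 such fragments held 5942 of the 6836. Captured states were rebuilt from these scores, so the scores are no separate evidence.

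The longest stretch ran over 7.92 Mb, from 221370048 to 229285467, and held 1597 fragments. SS 1 captured 424 of them, SS 2 captured 366 and SS 3 captured 364. SS13BN 1 captured 343, SS13BN 2 captured 541 and SS13BN 3 captured 289. The highest scores in it were between 9.72 in SS13BN 3 and 13.1 in SS13BN 2. It held 7.44% ± 0.566 (SD, n = 6) of the captures of the part in 4.23% of its fragments, and its relative capture was 2.09 ± 0.143 (SD, n = 6). The strains overlap in this stretch, with relative capture from 1.92 to 2.29 in SS and from 1.94 to 2.17 in SS13BN.

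The other long stretches were spread over the part. The one from 270786274 to 274713602, with 886 fragments, stood at 2.01 ± 0.201 (SD, n = 6). That from 283502072 to 286006009 stood at 1.78 ± 0.142, and that from 216975338 to 219330016 at 1.82 ± 0.196. The stretch from 169511323 to 171641361 was the only long one below 180 Mb, and stood at 2.04 ± 0.211. The remaining long stretches stood between 1.32 and 2.14.

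Single 500 kb windows were called contact windows when an exact binomial test, one-sided for excess over the library's share, passed after adjustment by the Benjamini-Hochberg method over all 5332 windows of a library. A window counts for a strain when adjusted p is under 0.05 in all 3 of its libraries. Of the 261 windows of the part, 12 were contact windows in both strains, where 0.713% of all windows were, and none of the 318 windows of the rest of chromosome 1 was. Since the part was chosen for its level, these counts are a description. With the expectation set by fragment length, 8 windows of the part were called in both strains, where 0.338% of all windows were. Without SS13BN 3, the library with the fewest captures, 19 windows of the part were contact windows in both strains, of 82 among all windows, against 12 of 38 with all libraries.

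Of the 12 windows, 5 lay between 220 and 230 Mb and 5 between 260 and 280 Mb. The strongest, from 222500001 to 223000000, ranked 3 among 5311 windows with at least 20 fragments. The captured number of its 89 fragments was 37, 34 and 36 in SS 1 to 3 and 31, 52 and 31 in SS13BN 1 to 3. The share was lowest in SS13BN 1 and SS13BN 3, at 34.8% (95% Wilson interval 25.7% to 45.2%), and highest in SS13BN 2, at 58.4% (48.0% to 68.1%). Relative to depth it was 3.37, 3.82 and 3.40 in SS and 3.51, 3.35 and 3.97 in SS13BN, and the strains overlapped.

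Of 119 fragments in the window from 226000001 to 226500000, SS libraries captured 39, 42 and 42 and SS13BN libraries 47, 46 and 29. Its relative capture of 3.02 ± 0.636 (SD, n = 6) spread from 2.22 in SS13BN 2 to 3.98 in SS13BN 1. Of 90 fragments in the window from 271500001 to 272000000, SS libraries captured 33, 26 and 33 and SS13BN libraries 28, 44 and 19, a relative capture of 2.88 ± 0.262. In both windows the range of SS lay inside that of SS13BN.

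Of 136 fragments in the window from 264500001 to 265000000, SS libraries captured 46, 28 and 46 and SS13BN libraries 48, 55 and 40, a relative capture of 2.81 ± 0.577 (SD, n = 6). The neighbouring windows that start at 227500001 and 228000001 stood at 2.66 ± 0.479 and 2.68 ± 0.602. Those at 269000001 and 170500001 stood at 2.51 ± 0.443 and 2.50 ± 0.229. The last 4, at 268500001, 251000001, 224500001 and 274000001, stood at 2.25 ± 0.350, 2.21 ± 0.311, 2.12 ± 0.144 and 2.08 ± 0.0393. From 3.02 down, windows next to each other in the order of their means differ by less than the larger of their SDs. The window at 274000001 was the steadiest of the 12, with 2.03 to 2.14 in all 6 libraries.

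**Figure D3:**
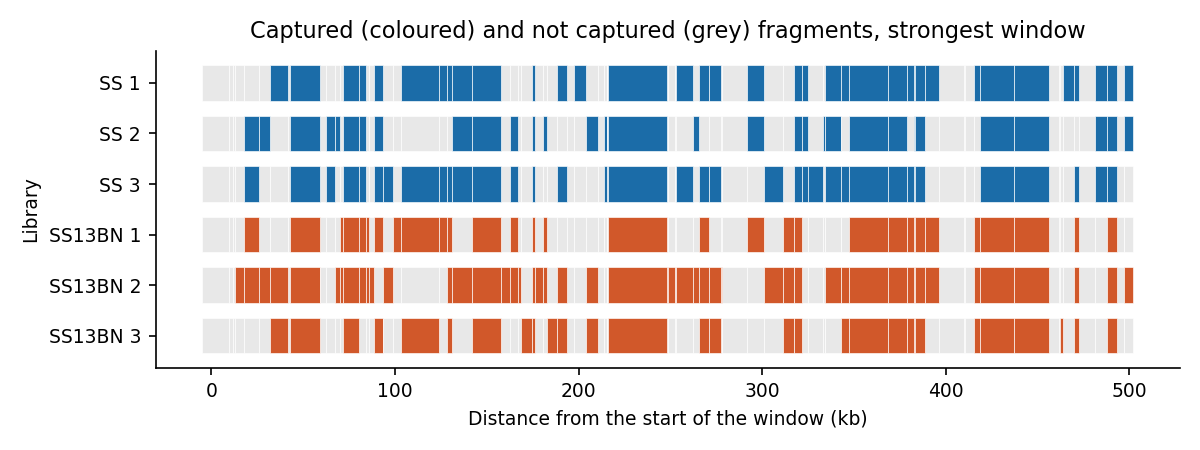
The 89 fragments of the strongest 500 kb window in each of 6 libraries (rows) by distance from the window's start in kb; coloured bars are captured fragments and grey bars are not captured. SS13BN 2 has the most captured, 52, and 13 fragments are coloured in every row.

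In the strongest window the same fragments recurred. Of its 89 fragments, 13 were captured in all 6 libraries and 19 in none. The 13 had a median length of 10224 bp, against 4293 bp over the window and 2811 bp for the 19. The longest of them, from 222716156 to 222747894, spans 31739 bp, and the shortest, from 222882691 to 222883426, spans 736 bp. There were 3 pairs of direct neighbours among them, and the pair from 222918574 to 222937141 and from 222937142 to 222956250 covers 2 fragments of 18568 and 19109 bp. Over the 12 windows, 97 of 1374 fragments, or 7.06%, were captured in all 6 libraries, and 32.8% in none. Of all fragments outside chromosome 13, 1.48% and 63.0% were. The 12 windows were called for high capture, so these shares are a description.

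Over the whole distal part, 781 fragments (2.07%) were captured in all 6 libraries and 22411 (59.4%) in none. In the rest of chromosome 1 these shares were 1.32% and 67.6%, and over all fragments outside chromosome 13 they were 1.48% and 63.0%. Fragments captured in all 6 libraries had a median length of 4983 bp in the part, against 1596 bp for those captured in none. Every pair of libraries shared captures in the part, between 2.41 and 3.69 times the number given by the product of the captured shares. SS 1 and SS 2 shared 1800 fragments, or 32.6% of those of SS 1 and 40.3% of those of SS 2. SS 1 and SS13BN 1 shared 2058, or 37.3% and 46.8%. Over the 500 kb windows of the part, Spearman correlations of relative capture were 0.788 ± 0.0230 (mean ± SD) over 6 same-strain pairs. They were 0.815 ± 0.0252 for the 3 pairs of the same number and 0.793 ± 0.0300 for the 6 other pairs. These are correlations across 261 windows that share fragment number and length in every library, and are given as a description.

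Long fragments were captured more than short ones, though not at every step between length classes, and most classes were captured more in the part than elsewhere. All fragments outside chromosome 13 were split into 20 classes of near-equal number. In 18 classes, relative capture was higher in the distal part than in all other fragments. The ratio was highest, at 1.47, in the class of the longest fragments, where the part stood at 1.88 ± 0.165 (SD, n = 6) and the others at 1.28 ± 0.0901. It was below 1 in the 2 shortest classes, at 0.762 for fragments of 6 to 92 bp and 0.788 for those of 93 to 216 bp. These 2 classes made up 13.2% of the part's fragments and 9.87% elsewhere. Many of them in the part lay between 187 and 188.5 Mb, in a region of very low capture described below. It held 585 fragments of 92 bp and 127 of 91 bp, where the shortest class has 2478 in the part. It also held 436 of 93 bp, 116 of 185 bp and 82 of 184 bp, where the next class has 2502. Of the region's 1973 fragments, at most 4 were captured in any library. The ratios without this region were not computed. With captures divided by those expected from length, relative capture of the part was 1.21 ± 0.0117 (SD, n = 6).

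**Figure D4:**
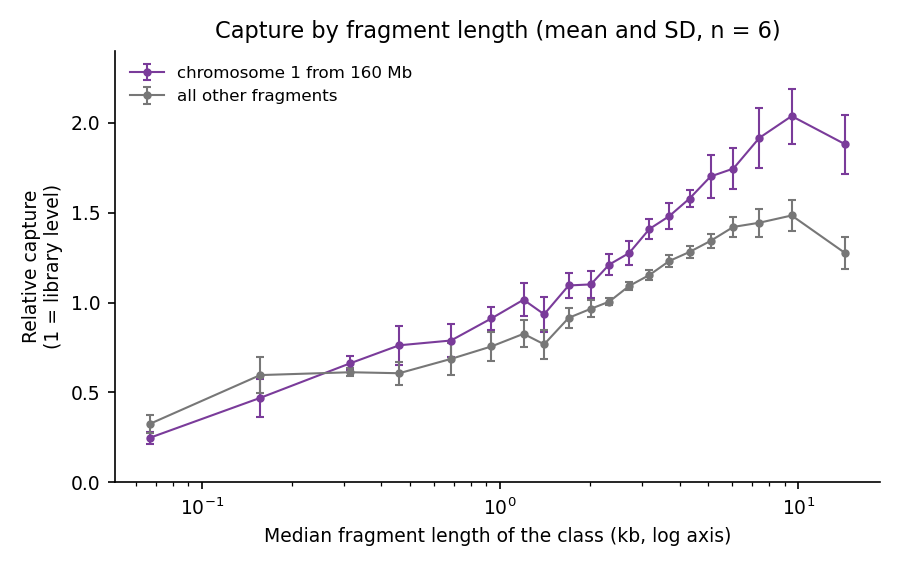
Relative capture (vertical axis, 1 is the library's level) of 20 fragment length classes against their median length in kb (log axis), as mean and SD of 6 libraries, for the distal part and for all other fragments outside chromosome 13. The curve of the part lies above the other in all but the 2 shortest classes, and the gap is widest among the longest fragments, at 1.88 against 1.28. In the part, the 2 shortest classes include many fragments from 187 to 188.5 Mb, where almost none was captured.

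A floor of very low capture lay between 186 and 190.5 Mb, where many fragments were short. Its 3082 fragments had a median length of 130.5 bp, against 2123 bp over the part. Of them, 25, 10 and 21 were captured in SS 1 to 3 and 21, 29 and 21 in SS13BN 1 to 3, a relative capture of 0.0593 ± 0.0156 (SD, n = 6). The next window, from 190500001 to 191000000, was back near the library's level at 0.949 ± 0.147. The window from 187500001 to 188000000 held 944 fragments and the next 663, where the median window of the part held 136. None of the 944 was captured in any library. If all of them could be detected, which was not tested, this allows a share of up to 0.318% in each library.

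The core of this floor, from 187 to 188.5 Mb, was an array of fragments of repeated length. Of its 1973 fragments, 585 were 92 bp long and 436 were 93 bp long, and the next most frequent lengths were 91, 185 and 184 bp. Rat DNA is known for a satellite, a tandemly repeated sequence, that EcoRI cuts into short pieces; whether this array belongs to it was not tested. Longer fragments of the floor were low as well. The 791 fragments of at least 1000 bp between 186 and 190.5 Mb stood at 0.188 ± 0.0532 (SD, n = 6). With 186 to 191 Mb left out, which takes in that next window, the relative capture of the distal part was 1.29.

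Windows low in every library were mostly those of the floor. A relative capture of at most 0.5 in all 6 libraries was found in 12 of 261 windows of the part, where 3.39% of all windows had it, and 9 of the 12 lay between 186 and 190.5 Mb. The 5 lowest windows start at 187500001, 187000001, 188000001, 186000001 and 189500001, with means from 0 to 0.105. The other 3 start at 230000001, 265000001 and 267000001, at 0.246 ± 0.0810, 0.357 ± 0.0665 and 0.271 ± 0.0809 (SD, n = 6). The low window at 265000001 directly follows the contact window at 264500001. Windows of at least 1.5 in all 6 libraries numbered 33 of 261 in the part, where 3.88% of all windows reached it.

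Chromosomes 3, 10 and 16 had overall levels near that of the distal part, at 1.21 ± 0.0173, 1.24 ± 0.0487 and 1.27 ± 0.0306 (SD, n = 6). Their contact windows of both strains numbered 7 of 358, 3 of 225 and 3 of 181. Windows of at least 1.5 in all 6 libraries made up 10.1%, 7.11% and 12.7% of their windows, against 12.6% in the distal part. Windows of the distal part ranged from 0 to 3.57, and those of the 3 chromosomes from 0.0677 to 3.01, from 0.120 to 2.97 and from 0.212 to 2.80. These are descriptions of levels and were not tested.

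The comparison between strains asked whether the origin of chromosome 13 altered how often the viewpoint met the distal part of chromosome 1. It was not used to choose the part. The share of all captures outside chromosome 13 that lay in the part was 5.88%, 5.88% and 6.03% in SS 1 to 3 and 5.83%, 5.88% and 5.92% in SS13BN 1 to 3. The strains overlapped. The means were 5.93% ± 0.0854 (SD, n = 3) and 5.88% ± 0.0470 (SD, n = 3). The difference, SS13BN minus SS, was -0.0485 percentage points, with an exact two-sided permutation p of 0.6, where 3 against 3 libraries cannot go below 0.1. It turned to 0.000734 without SS 3, and to 0.115 when the share was taken of chromosome 1 alone.

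No 10 Mb block of the part passed the test between strains. The test was limma on log2(captured fragments scaled to the mean library total + 1), fitted over 282 blocks outside chromosome 13 with Benjamini-Hochberg adjustment. In the part, 0 of 13 full blocks passed adjusted p 0.05 and 0 had an unadjusted limma p under 0.05, where 0.0% and 0.355% of all blocks did. The strains did not overlap in 0 of the 13 blocks, where they did not in 2.13% of all blocks with SS13BN higher and 0.355% with SS13BN lower. The differences (SS13BN minus SS, log2) ran from -0.08 to 0.06, 6 above 0 and 7 below. Their 95% half-widths were 0.14 to 0.16, so each block's interval leaves out any change of more than about 0.24 on this scale. The 3 with the smallest p were those at 280, 220 and 260 Mb, with differences of -0.07 (SE 0.07), -0.08 (SE 0.08) and -0.07 (SE 0.08), each with limma adjusted p = 0.973. In the block at 220 Mb, 523, 451 and 450 fragments were captured in SS and 403, 665 and 349 in SS13BN.

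No 500 kb window of the part passed either. Of 259 windows with a mean of at least 1 captured fragment, 0 passed limma adjusted p 0.05, where 0.0% of 5296 windows did. An unadjusted limma p under 0.05 was found in 8 of the 259, where 3.02% of all windows had it. The strains did not overlap in 19 windows, with SS13BN higher in 10 and lower in 9, or 3.86% and 3.47%, where 4.25% and 3.55% of all windows did. These shares are near the background. The median 95% half-width of a window's difference was 0.46 on the log2 scale.

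The window with the smallest p lay from 215500001 to 216000000. Of its 130 fragments, SS 1 to 3 captured 18, 19 and 19 and SS13BN 1 to 3 captured 25, 48 and 22. Scaled to depth, all 3 SS13BN libraries were above all 3 SS libraries, with a log2 difference of 0.63 (SE 0.21; limma adjusted p = 0.999). In the window from 220000001 to 220500000, SS captured 29, 27 and 26 of 173 and SS13BN 15, 35 and 11, a log2 difference of -0.59 (SE 0.22) at the same adjusted p. The contact window from 228000001 to 228500000 had 42, 27 and 31 of 92 in SS and 20, 35 and 18 in SS13BN, a difference of -0.49 (SE 0.20), also at limma adjusted p = 0.999. In both of these windows all 3 SS13BN libraries were below all 3 SS libraries once scaled to depth. None of the differences passed the correction over all windows.

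**Figure D5:**
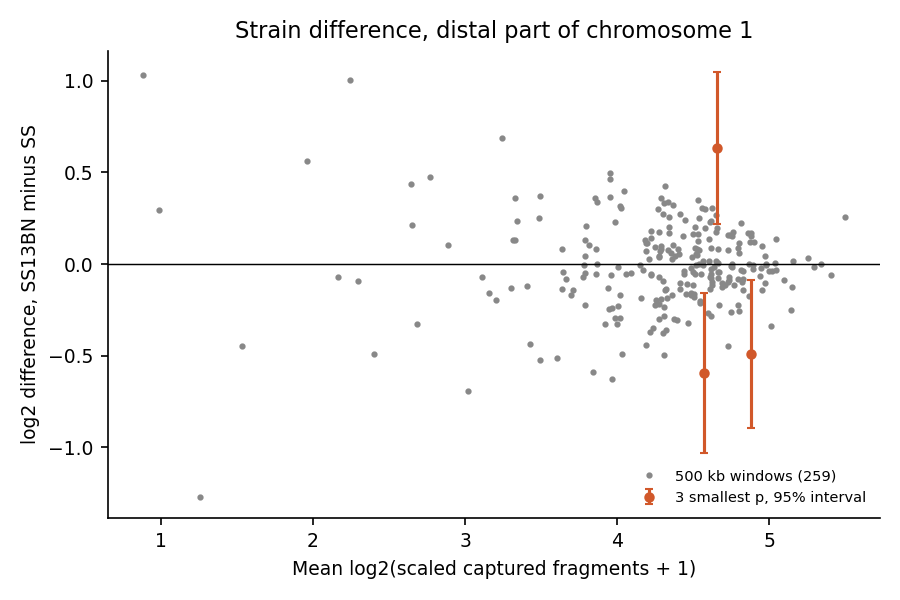
Strain difference (vertical axis, log2 SS13BN minus SS) of the 259 tested windows of 500 kb against their mean log2 scaled captured fragments; grey points are windows, and orange points with bars are the 3 windows with the smallest p and their 95% intervals. Points scatter around 0 and widen to the left, where few fragments were captured.

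Contact windows of SS alone were mostly near misses in SS13BN, while most of the few of SS13BN alone passed in only 1 SS library. In the part, 11 windows were contact windows in SS alone and 5 in SS13BN alone, where 1.14% and 0.863% of all windows were. Contact windows of SS numbered 23 in all, where 1.86% of all windows were, and those of SS13BN 17, where 1.58% were. Of the 11, 9 also passed in 2 SS13BN libraries and 2 in 1. Of the 5, 2 passed in 2 SS libraries and 3 in 1. Single libraries had 52, 39 and 53 contact windows in the part in SS and 47, 75 and 30 in SS13BN. Of all windows, 8.85%, 6.85% and 5.36% were called in the SS libraries and 8.36%, 12.1% and 3.26% in the SS13BN libraries. SS13BN 2, which captured most, called most. In the limma test of the strain difference none of the windows of the part passed.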

How the data were processed

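The authors deposited 1 table per library with a score per EcoRI fragment, and the submitters' processing notes name the build rn5 and the tool CASAVA 1.8. Which aligner, read filters and scoring program were used is not given in the sources used here. On the 20 chromosomes other than 13, captured or not captured states were rebuilt from the deposited scores, and they gave back 100.0% of the windows in each library. The method was tested on simulated data, as was the limma fit. The changes planted for limma were larger than any strain difference found in the part. That simulation therefore does not show whether differences of the size found here would be detected. A fragment belongs to the window that holds its midpoint. Tests ran in limma 3.58.1 (R 4.3.3), scipy 1.17.1 and statsmodels 0.14.6, and tables and figures in pandas 2.3.3, numpy 2.4.6 and matplotlib 3.10.9 (Python 3.11.15). Low windows needed at least 50 fragments to be named.

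The named windows are the contact windows of both strains, the 5 lowest, the 3 with the smallest strain p, all blocks, and those beside the bound. The part, lists and tests were chosen with earlier results of these data known. No sequences were read.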

Additional observations from a re-analysis of the deposited data

How the results depend on the processing

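The counts of 0 windows and 0 blocks past the limma threshold between strains were found in every alternative run: replicate number as a block (0 and 0), another pseudocount, no low filter, scaling to chromosome 1, no trend, other window sizes, each library left out, and both libraries numbered 3 left out (chosen after seeing the data). The share of captures in the part differed by -0.0732 to 0.000734 percentage points between strains with single libraries left out (above 0 without SS 3 alone), and by 0.115 (exact permutation p = 0.9) as a share of chromosome 1. Pairing by replicate number left it at -0.0485 (exact sign-flip p = 0.5, where 3 pairs cannot go below 0.25). Deviations of same-numbered libraries correlated at 0.0875, 0.130 and 0.0834 over windows, each library's highest. Those of differently numbered libraries lay between -0.0932 and -0.00753. Same-numbered libraries thus shared some variation, which the main tests left out and the runs with replicate number as a block or pair took in.

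The 12 contact windows of both strains (of 38 among all windows) became 5 of 9 at adjusted p 0.01, 5 of 11 with 250 kb windows, 23 of 88 with 1 Mb windows, 21 of 130 without both libraries numbered 3, and 12 to 19 with single libraries left out, of 38 to 82; fewer libraries also loosen the rule. Relative capture of the part, 1.19, became 1.21 with length in the expectation, 1.37 relative to the rest of chromosome 1, 1.16 and 1.21 with bounds at 150 and 170 Mb, 1.14 without the contact windows, 1.29 without 186 to 191 Mb (chosen after seeing the data), and 1.18 to 1.19 with single libraries left out. The planned and added alternatives could all be run. Depth limits single windows, whose intervals are wide, more than blocks.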
